A study of Homo sapiens with 9 samples.

Results

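MHC class I molecules are cell surface proteins that show peptides from inside the cell to cytotoxic T cells, and 9 genes of this pathway were followed here in LNCaP prostate cancer cells. They were chosen by symbol: the heavy chain genes HLA-B, HLA-C, HLA-E and HLA-F, the light chain gene B2M, the peptide transporter genes TAP1 and TAP2, and the immunoproteasome genes PSMB8 and PSMB9. These are 9 of 19775 genes named on the array, measured by 23 of its 54675 probe sets, and none of the 23 carried more than 1 gene symbol. A gene's level is that of its brightest probe set on average over the 9 arrays. All 9 lay above the level filter (5.917 on the log2 scale) that left 11865 genes for testing, and no main probe set fell below the median of its array on any array. In the pathway, the immunoproteasome subunits cut proteins into peptides, TAP1 and TAP2 together carry the peptides into the endoplasmic reticulum, and a heavy chain assembles there with beta-2-microglobulin and a peptide. Interferons raise the whole set in most cell types, through STAT factors, IRF1 and the transactivator NLRC5, and tumour cells that lower it are less visible to T cells.

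The study asked how androgen acts on gene expression in LNCaP, an androgen-responsive line from human prostate cancer, when topoisomerase II is inhibited or its beta form, TOP2B, is lowered. Each of 9 groups had 1 array, so no group had a replicate. In the inhibitor series, steady-state cells grew in medium with 10% fetal bovine serum, and the other 4 groups were first kept for 48 h in 5% charcoal-stripped serum, which holds little androgen. Of these, 1 group was given 100 µM etoposide for 2 h and then 100 nM dihydrotestosterone (DHT, the active androgen) for 16 h, 1 was given 100 µM merbarone in the same way, 1 received DHT alone, and 1 was the deprived vehicle control. Both drugs act on topoisomerase II, etoposide by holding the enzyme on broken DNA and merbarone by stopping its reaction cycle. In the shRNA series all 4 groups were transfected with vectors that make green fluorescent protein, deprived of androgen and sorted for fluorescence: sh-TOP2B cells with DHT, sh-TOP2B cells with vehicle, sh-control cells with DHT and sh-control cells with vehicle. As in the inhibitor series, deprivation was 48 h in 5% charcoal-stripped serum, and DHT was given at 100 nM for 16 h. The labels name 1 shRNA vector against TOP2B and no separate cultures within a group, so the p-values reflect just the spread among these arrays, which may be technical.

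Values are log2 expression values, differences are log2 differences, and a gene is said to pass when its limma adjusted p over all 11865 genes was under 0.05. The spread behind most tests is how far the DHT effects of 3 pairs of arrays (inhibitor series, sh-TOP2B, sh-control) differ. A lone array was assumed to vary like the arrays of these pairs. Fits that left out arrays used fewer pairs. The comparison of DHT responses in sh-TOP2B cells used the spread between the inhibitor-series and sh-control pairs. The array medians lay between 5.61 and 5.72, and a level below its array's median is called dim. Array quality differed between the series: the 3' minus 5' difference of the beta-actin control probe sets was 2.38 to 3.09 on the shRNA arrays and 0.38 to 0.70 on the inhibitor arrays. TOP2B itself was at 10.01 and 10.09 in sh-TOP2B cells, against 10.87 and 10.54 in sh-control cells (-0.66 ± 0.12 SE, adjusted p = 0.0932), which did not pass. Of 6 luminal prostate markers measured, 4 were above the array median on all 9 arrays, among them the keratin genes KRT8 and KRT18, and of 7 leukocyte markers 5 were dim on all 9 arrays, the pan-leukocyte gene PTPRC at 3.18 to 3.80. The summed level of the leukocyte markers was 32.39 to 33.17 on the inhibitor arrays and 29.72 to 31.06 on the shRNA arrays. Because RNA was taken from whole cultures or sorted pools, fewer expressing cells and less RNA per cell cannot be told apart.

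The start regions of 6 of these genes are shown because 5 of them hold motifs through which interferon or NF-kappaB act, and because the remaining one, PSMB9, and TAP1 face away from each other across 1 short stretch of chromosome 6. RefSeq (GRCh38.p14) gave start windows for 8 of the 9 genes, 10 windows in all, each read here over the 250 bases before a transcript start. The windows below are TAP1 at chr6:32853705-32853954 (minus strand), PSMB9 at chr6:32853942-32854191 (plus strand), PSMB8 at chr6:32844048-32844297 (minus strand), B2M at chr15:44711267-44711516 (plus strand), HLA-B at chr6:31357180-31357429 (minus strand) and TAP2 at chr6:32838740-32838989 (minus strand). The starts of TAP1 and PSMB9 lie 487 bases apart, and their windows share 13 bases. Capitals mark, on either strand, the interferon-stimulated response element core (GAAA, any 2 bases, GAAA), the gamma-activated site TTCNNNGAA, and the NF-kappaB letters GGGNNTTCC or, in a longer form, GGG, any 2 bases and TTTCC.
TAP1: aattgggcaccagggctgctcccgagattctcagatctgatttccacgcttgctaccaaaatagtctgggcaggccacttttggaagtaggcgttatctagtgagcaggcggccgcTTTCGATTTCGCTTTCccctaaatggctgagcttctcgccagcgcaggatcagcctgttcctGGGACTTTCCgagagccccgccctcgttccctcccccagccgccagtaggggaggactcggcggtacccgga
PSMB9: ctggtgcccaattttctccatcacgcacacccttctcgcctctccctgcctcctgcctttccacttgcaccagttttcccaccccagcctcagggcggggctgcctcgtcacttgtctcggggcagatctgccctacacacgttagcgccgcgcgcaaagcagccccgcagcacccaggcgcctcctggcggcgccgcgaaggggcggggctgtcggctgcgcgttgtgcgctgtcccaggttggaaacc
PSMB8: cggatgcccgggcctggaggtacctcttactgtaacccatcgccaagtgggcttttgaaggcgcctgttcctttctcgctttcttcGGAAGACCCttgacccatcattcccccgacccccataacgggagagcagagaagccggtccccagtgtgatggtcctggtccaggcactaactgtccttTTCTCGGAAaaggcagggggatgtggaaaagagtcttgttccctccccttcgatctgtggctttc
B2M: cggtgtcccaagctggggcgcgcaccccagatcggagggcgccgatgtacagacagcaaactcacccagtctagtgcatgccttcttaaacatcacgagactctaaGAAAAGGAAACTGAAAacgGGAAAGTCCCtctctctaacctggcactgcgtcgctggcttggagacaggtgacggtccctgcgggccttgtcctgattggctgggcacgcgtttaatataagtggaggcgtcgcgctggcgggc
HLA-B: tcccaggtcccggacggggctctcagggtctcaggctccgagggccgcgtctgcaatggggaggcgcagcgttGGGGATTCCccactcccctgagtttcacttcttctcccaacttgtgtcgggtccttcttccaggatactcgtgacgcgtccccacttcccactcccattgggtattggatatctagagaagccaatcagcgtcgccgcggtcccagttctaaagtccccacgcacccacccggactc
TAP2: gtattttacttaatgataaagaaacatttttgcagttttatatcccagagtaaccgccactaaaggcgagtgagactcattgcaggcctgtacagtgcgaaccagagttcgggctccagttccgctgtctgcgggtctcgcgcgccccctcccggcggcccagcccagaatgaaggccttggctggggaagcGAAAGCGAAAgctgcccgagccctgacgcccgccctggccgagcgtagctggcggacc
The interferon core was present in 4 genes with a window, HLA-F, B2M, TAP1 and TAP2, and in 3.02% of all 35116 RefSeq windows of this length. In B2M and in TAP1 it stood as a pair of overlapping matches. The gamma-activated site was found in PSMB8 and in the window of a second TAP1 start (6.57% of all windows), the shorter NF-kappaB form in HLA-B and PSMB8 (5.78%), and the longer form in B2M and TAP1 (1.73%). The PSMB9 window held none of these 4 and is printed all in lower case. The interferon core and NF-kappaB matches of TAP1 lie between the starts of TAP1 and PSMB9, outside the 250 bases read for PSMB9. Of 3 further motifs searched on both strands, CCAAT was in 6 members (32.0% of all windows), TGACG, the core of a CREB site, in 6 (21.2%), and AGAACA, the core of an androgen receptor site, in PSMB8 (12.4%). The TGACG and AGAACA matches of PSMB8 lie in the window of another PSMB8 start, chr6:32844680-32844929, which is not printed. That window held none of the motifs marked by capitals, and the PSMB8 window printed above held neither TGACG nor AGAACA. These are matches of letters and were not tested as binding sites.

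In the inhibitor series class I genes were much lower in steady-state cells than in cells kept in charcoal-stripped serum, with or without DHT. Serum amount, charcoal stripping, time in that serum and androgen differ together between steady-state and vehicle cells. Their parts in the fall were not tested and cannot be told apart here. Of the 9 genes, 8 fell past the test in steady state relative to the vehicle array, where 12.4% of all genes tested fell and 28.1% changed in either direction. The members' median difference was -1.62, against 0.045 for all genes tested. HLA-B, whose product is a classical peptide-presenting heavy chain, was at 11.52 in steady state, against 13.54 with etoposide and DHT, 13.50 with merbarone and DHT, 13.54 with DHT and 13.56 with vehicle. It was 4.12-fold lower in steady state than with vehicle (-2.04 ± 0.11 SE, limma adjusted p = 9.04e-05). The 4 deprived arrays of the series thus lay within a range of 0.06, and the steady-state array stood apart from all of them. HLA-C, the other classical heavy chain measured, was at 12.13 in steady state, against 13.53 with etoposide and DHT, 13.38 with merbarone and DHT, 13.49 with DHT and 13.49 with vehicle (-1.36 ± 0.10 against vehicle, adjusted p = 2.38e-04). HLA-E, whose product presents signal peptides of other class I chains to NK cells, was at 9.39 in steady state, against 10.99, 11.06, 10.97 and 11.01 on the arrays of those 4 deprived groups in the same order (-1.62 ± 0.19, adjusted p = 0.00166). HLA-F, a non-classical heavy chain, was 4.39-fold lower at its main probe set, with 9.84 in steady state, against 11.83 to 11.97 on the deprived arrays (adjusted p = 1.11e-04). The other HLA-B probe sets were at -2.40 and -2.82. For all 4 heavy chains the steady-state value lay outside the range of the 4 deprived arrays.

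B2M, the light chain shared by all class I molecules, fell least of the 8 genes that passed, comparing main probe sets. It was at 12.99 in steady state, against 13.89 with etoposide and DHT, 13.76 with merbarone and DHT, 13.73 with DHT and 13.83 with vehicle (-0.84 ± 0.17 against vehicle, adjusted p = 0.0123). When arrays were centred on 9 housekeeping control genes it was -0.59 with adjusted p = 0.0562, which did not pass (range over 9 alternatives 0.00163 to 0.0646), and this centring moved the median of all genes to 0.29.

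**Figure D1:**
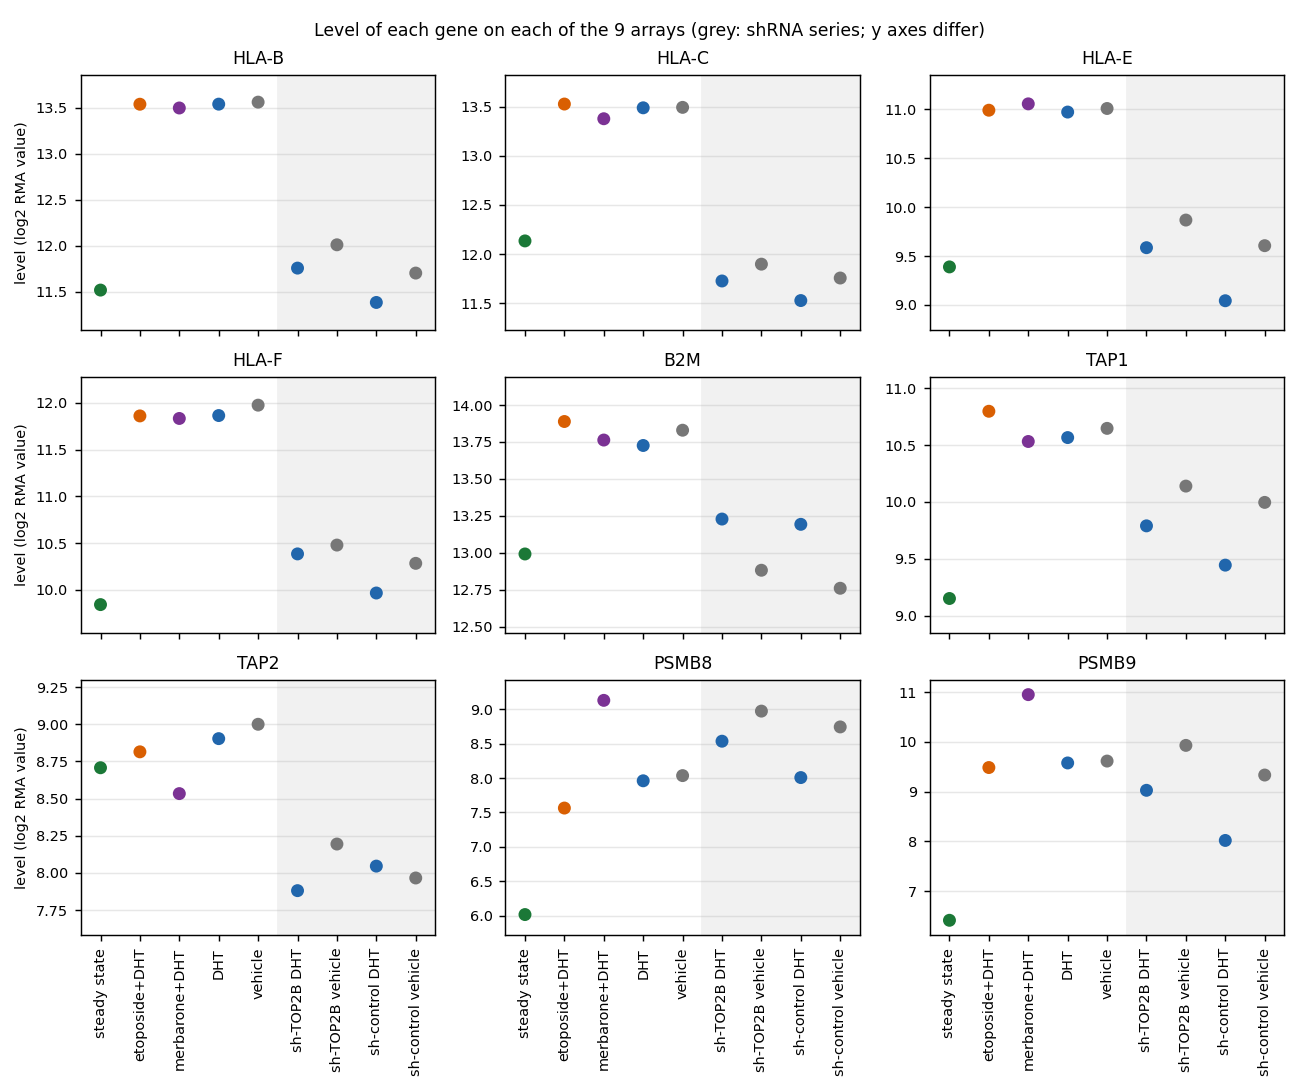
Level of each of the 9 genes (log2 expression value, vertical axis, scaled per gene) on each of the 9 arrays (horizontal axis), 1 point per array, with the shRNA series on grey. Steady state is the lowest inhibitor-series array for 8 genes, while TAP2 has merbarone with DHT lowest at 8.53. PSMB8 and PSMB9 are highest with merbarone and DHT (9.13 and 10.95), and all genes but PSMB8 and PSMB9 have every shRNA array below the 4 deprived inhibitor arrays.

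The transporter genes did not move alike in the test. TAP1 was at 9.15 in steady state, against 10.80 with etoposide and DHT, 10.53 with merbarone and DHT, 10.57 with DHT and 10.65 with vehicle, a 2.82-fold fall against vehicle (-1.49 ± 0.18, adjusted p = 0.00183). TAP2 was at 8.71 in steady state, against 8.81, 8.53, 8.90 and 9.0 on the same 4 deprived arrays. Its difference from vehicle, -0.29 (95% interval -0.78 to 0.19), did not pass (adjusted p = 0.350), and its steady-state value lay inside the range of the deprived arrays. Whether the TAP1 and TAP2 differences differ from each other was not tested.

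The immunoproteasome genes showed the widest range of the members. PSMB8, which encodes the subunit beta-5i, was at 6.02 in steady state, against 7.56 with etoposide and DHT, 9.13 with merbarone and DHT, 7.96 with DHT and 8.04 with vehicle. It was 4.05-fold lower in steady state than with vehicle (-2.02 ± 0.26, adjusted p = 0.00214). PSMB9, which encodes beta-1i, was at 6.42 in steady state, against 9.48 with etoposide and DHT, 10.95 with merbarone and DHT, 9.58 with DHT and 9.61 with vehicle. Its fall of 9.18-fold (-3.20 ± 0.39, adjusted p = 0.0018) was the largest of the 9. For both genes steady state was the lowest of the 9 arrays and merbarone with DHT the highest.

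The deprived array used as reference made no difference to these calls. With the DHT array in place of the vehicle array, an alternative chosen after the data were seen, 8 members again fell past the test, against 11.4% of all genes tested. All 19 member probe sets that were never dim were lower in steady state, with differences from -3.20 to -0.29. Several of these probe sets read the same gene, so they are not independent, and the share among all probe sets was not computed. The main probe sets of the 4 HLA genes are of a class whose probes can match several related transcripts, so a value there may include signal from another HLA gene. Without probe sets of this kind or of the kind shared by transcripts, 3 members could be tested, and HLA-E (-1.43, adjusted p = 0.00975) and PSMB9 (-3.20, adjusted p = 0.00181) passed while TAP2 did not.

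**Figure D2:**
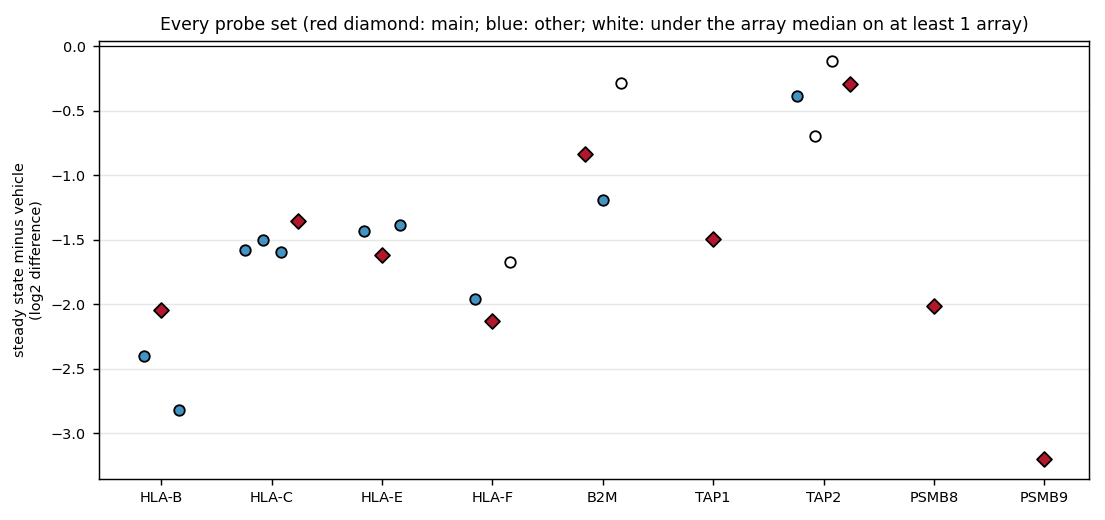
Steady state minus vehicle (log2 difference, vertical axis) for each of the 23 probe sets of the 9 genes, with the main probe set as a red diamond, other probe sets as blue circles, and probe sets that were dim on at least 1 array in white. Every point lies below 0, and the 3 HLA-B probe sets lie between -2.82 and -2.04.

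Other genes of the pathway also differed between steady-state and vehicle cells, in part. Of 7 peptide loading and assembly genes, 3 fell and none rose: TAPBPL (-3.07), which encodes a tapasin-like peptide editor, ERAP1 (-2.75), which trims peptides in the endoplasmic reticulum, and TAPBP (-2.36, 9.94 in steady state against 12.29 with vehicle), which encodes the tapasin that joins heavy chains to the transporter. The calreticulin, calnexin and PDIA3 genes of the general folding machinery did not pass. Of 6 other proteasome genes, PSMB10 (-0.96), the remaining immunoproteasome subunit, and the activator gene PSME1 (-0.79) fell, while PSMB5 (0.50) and PSMB6 (0.33), the constitutive subunits that PSMB8 and PSMB9 replace, rose. PSMB6 did not pass after the arrays were quantile normalized again (0.30, adjusted p = 0.0748). Of 10 transactivation genes 4 fell and none rose, among them IRF9 (-2.19), NFKB1 (-1.96) and IRF1, which was dim in steady state at 5.52, against 8.86 with vehicle, at least 9.43-fold lower. NLRC5, the class I transactivator, was at 5.83 in steady state, against 6.54 with vehicle (-0.71, adjusted p = 0.295). Of 7 interferon receptor and kinase genes 3 fell, IFNGR1 (-2.51), JAK1 (-1.52, 5.64 against 7.16) and IFNAR1 (-1.13), and none rose. The median differences of these lists were -0.38 for peptide loading, 0.25 for the other proteasome genes, -0.51 for transactivation and -0.43 for interferon receptors, beside 0.045 for all genes.

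The class II genes, which present peptides from outside the cell and are usually limited to immune cells, also fell in part. Of 7 tested, 5 fell and none rose, with a list median of -2.00. HLA-DRA, the class II alpha chain, was dim at 4.61 in steady state, against 11.12 with vehicle, at least 45.2-fold lower (adjusted p = 1.52e-05). HLA-DRB1 (-2.48) and HLA-DPA1 (-2.24) fell too, while HLA-DMA (0.49, adjusted p = 0.368) and HLA-DMB (0, adjusted p = 1), which help to load class II molecules, did not pass. The leukocyte markers summed to 32.64 in steady state, against 33.17 with vehicle. Of these 7 markers, PTPRC, CD14, LYZ, MS4A1 and NKG7 were dim on all 9 arrays, the T cell gene CD3E was above the array median on both (6.06 in steady state, against 6.27 with vehicle), and CD3D was above it in steady state (5.63) and dim with vehicle (5.18). Of 6 luminal markers 3 rose in steady state and none fell, KLK3 by 8.13. The part of all these markers in this result was not tested.

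**Figure D3:**
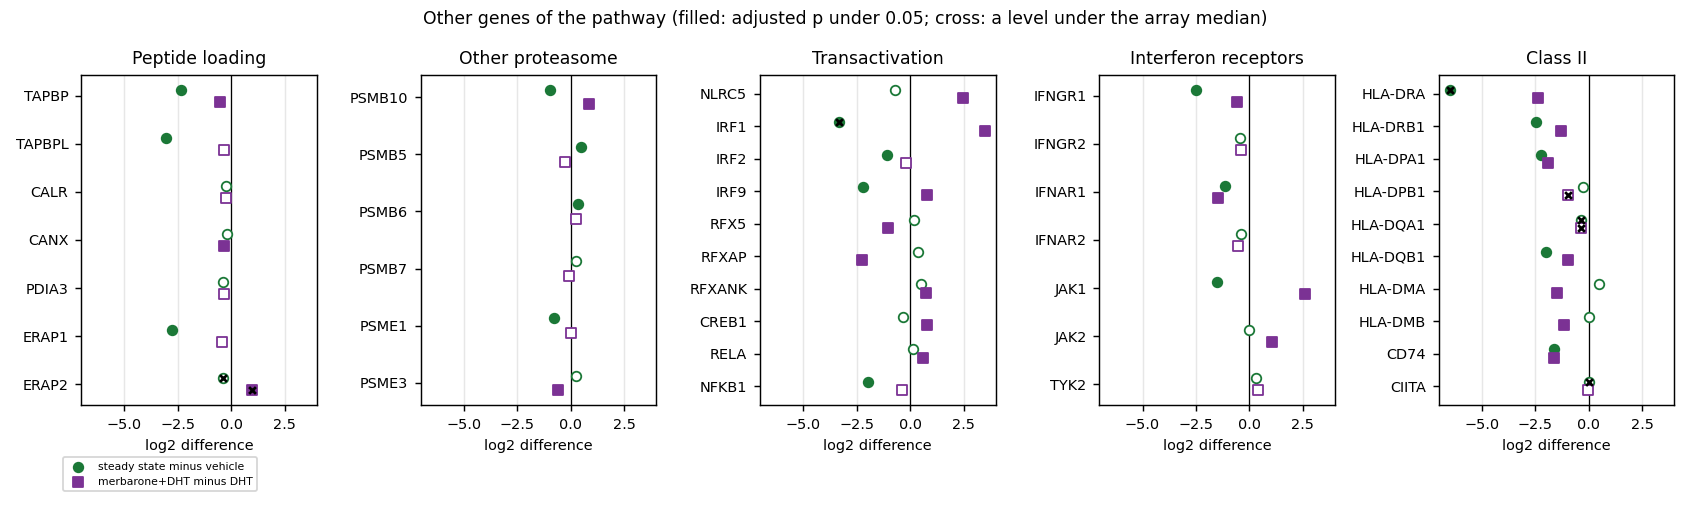
Log2 differences (horizontal axis) of the other pathway genes by list, with green circles for steady state minus vehicle and purple squares for merbarone with DHT minus DHT. Filled symbols passed the test, and a cross marks a difference with a dim level on at least 1 side. IRF1, JAK1 and PSMB10 lie left of 0 in steady state and right of 0 with merbarone, while the 5 class II genes that passed in steady state lie left of 0 in both.

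With merbarone 2 of the 9 genes rose, both of the immunoproteasome. Relative to DHT alone, PSMB9 was 2.59-fold higher with merbarone and DHT (1.37 ± 0.39, limma adjusted p = 0.0371) and PSMB8 was 2.25-fold higher (1.17 ± 0.26, adjusted p = 0.0153), and the other 7 genes did not pass. Among all genes tested, 15.4% rose with merbarone and 31.7% changed in either direction, so the members' count is near that background, and their median was -0.03 beside 0 for all genes. Whether PSMB8 and PSMB9 differ from the other 7 genes was not tested. The differences of the heavy chains were -0.04 for HLA-B (95% interval -0.31 to 0.23), -0.11 for HLA-C, 0.08 for HLA-E and -0.03 for HLA-F. B2M was at 0.04, TAP1 at -0.03 and TAP2 at -0.37 (95% interval -0.85 to 0.11). When the arrays were centred on the housekeeping control genes, which moved the median of all genes to 0.28, the differences of HLA-B, HLA-C, HLA-F and TAP1 turned positive (0.17 to 0.25) and still did not pass. PSMB8 passed in all 10 alternatives (adjusted p 0.00499 to 0.0351). PSMB9 passed in 8 of 11 (adjusted p 0.0102 to 0.0872), and without the sh-TOP2B pair its adjusted p was 0.0603.

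Regulators of the class I genes were among the genes raised by merbarone. Of 10 transactivation genes, 6 rose and 2 fell, with a median of 0.66. IRF1, an interferon-induced activator of these promoters, was at 11.92 with merbarone and DHT, against 8.42 with DHT (3.50 ± 0.22, adjusted p = 2.55e-04). NLRC5 was at 8.80 with merbarone and DHT, against 6.32 with DHT (2.48 ± 0.44, adjusted p = 0.00688). RFXAP, a subunit of the RFX complex that binds class I and class II promoters, fell by 2.26. Among 7 interferon receptors and kinases 2 rose and 2 fell: JAK1 rose by 2.60 (9.70 against 7.10) and JAK2 by 1.06, and IFNAR1 (-1.45) and IFNGR1 (-0.58) fell. With housekeeping centring IFNGR1 (-0.30, adjusted p = 0.124) no longer passed.

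PSMB10 rose by 0.84 and PSME3, an activator subunit of the nuclear proteasome, fell by 0.59 among the 6 other proteasome genes. Of the 7 loading genes 1 rose, ERAP2, which was dim with DHT and at least 1.78-fold higher with merbarone and DHT, and 2 fell, TAPBP (-0.54, 11.70 against 12.24) and CANX (-0.35). With housekeeping centring TAPBP (-0.25, adjusted p = 0.124), CANX (-0.07) and PSME3 (-0.31) did not pass. All 7 class II genes tested fell with merbarone, with HLA-DRA at 8.85, against 11.23 with DHT (-2.38), HLA-DPA1 at -1.89 and CD74, the class II invariant chain gene, at -1.62. Of 6 luminal markers 4 fell as well, among them the androgen-responsive genes KLK3 (at least 42.3-fold lower) and KLK2 (at least 9.20-fold lower), both dim with merbarone, and the leukocyte markers summed to 32.39 with merbarone, against 32.58 with DHT. The part of these in the results was not tested.

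With etoposide none of the 9 genes passed, and none had an unadjusted limma p under 0.05, while 1.05% of all genes passed and 14.6% had an unadjusted p under 0.05. The differences from DHT alone were -0.00081 for HLA-B, 0.04 for HLA-C, 0.02 for HLA-E, -0.0040 for HLA-F, 0.16 for B2M, 0.23 for TAP1, -0.09 for TAP2, -0.40 for PSMB8 and -0.09 for PSMB9. The 95% interval was -0.27 to 0.27 for HLA-B and -1.02 to 0.84 for PSMB9, so a rise of PSMB9 as large as with merbarone lay outside it. None of the pathway lists had a member that passed. Of 6 luminal markers 1 passed, KLK3, which was lower with etoposide (-3.34). NLRC5 was at 7.84 with etoposide and DHT, against 6.32 with DHT (1.52, adjusted p = 0.191), JAK1 at 7.96 against 7.10 (0.87, adjusted p = 0.207), IRF1 at 8.52 against 8.42 (0.10, adjusted p = 0.908) and TAPBP at 12.16 against 12.24 (-0.08, adjusted p = 0.805).

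Both inhibitors were given at 100 µM for 2 h before DHT, and the arrays were also compared directly. PSMB8 was lower with etoposide than with merbarone, at 7.56 against 9.13 (-1.56 ± 0.26, limma adjusted p = 0.00557), and so was PSMB9, at 9.48 against 10.95 (-1.46 ± 0.39, adjusted p = 0.0295). PSMB9 did not pass without a trend in the variance (adjusted p = 0.0729, range over 8 alternatives 0.00997 to 0.0729). The other 7 genes did not pass, with differences of -0.07 for HLA-E, 0.03 for HLA-F, 0.04 for HLA-B, 0.13 for B2M, 0.15 for HLA-C, 0.27 for TAP1 and 0.28 for TAP2 (95% interval -0.20 to 0.77). Among all genes 32.6% passed and 19.1% were lower with etoposide, so the members' count is near that background. Of 10 transactivation genes 4 were lower with etoposide and 2 higher, led by IRF1 (-3.40), RFXAP (1.87) and IRF9 (-1.14), while NLRC5 (-0.96, adjusted p = 0.146) did not pass. Of 7 interferon receptor and kinase genes JAK1 (-1.73) and JAK2 (-1.47) were lower, and IFNAR1 (1.16) and IFNGR1 (0.91) higher. Of the 6 other proteasome genes 3 were lower, led by PSMB10 (-0.93). Of the 7 loading genes TAPBPL (0.77), TAPBP (0.46) and CANX (0.30) were higher, and with housekeeping centring none of the 3 passed (TAPBP 0.18, adjusted p = 0.255). Of the 7 class II genes 6 were higher with etoposide, HLA-DRA at 10.51 against 8.85 (1.67).

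**Figure D4:**
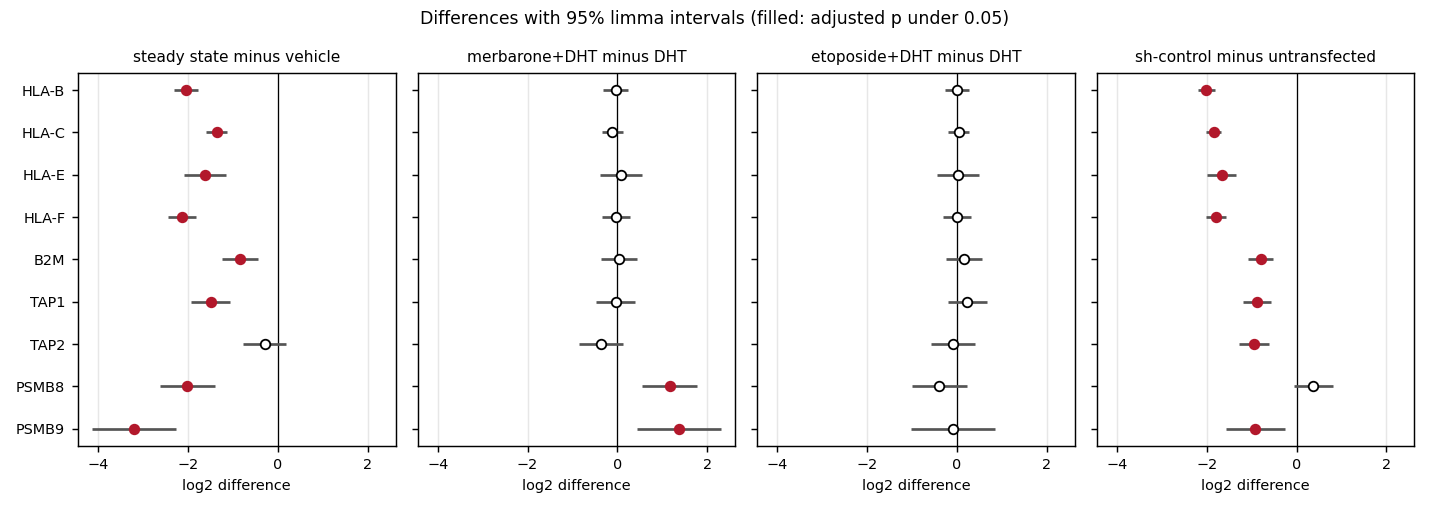
Log2 difference (horizontal axis) of each of the 9 genes in 4 comparisons, with bars for the 95% limma interval and filled points where the adjusted p was under 0.05. In steady state all 9 points are left of 0 and 8 are filled, with merbarone only PSMB8 and PSMB9 are filled, right of 0, with etoposide every interval crosses 0, and in sh-control cells 8 points are filled, left of 0.

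No class I gene passed the test with DHT for 16 h over the 3 pairs of arrays. Of the 9, 5 had an unadjusted limma p under 0.05, beside 0.447% of all genes that passed and 19.3% with such a p. Of the 9, 7 were lower with DHT in all 3 pairs, a pattern that 21.9% of all genes tested had. PSMB9 had the largest difference, -0.75 ± 0.22 (adjusted p = 0.161), made up of -0.04 in the inhibitor series, -0.90 in sh-TOP2B cells and -1.31 in sh-control cells. PSMB8 was at -0.42, TAP1 at -0.33, HLA-E at -0.29, HLA-B at -0.20, HLA-F at -0.17 and HLA-C at -0.13. In the inhibitor series alone none of these 7 differed by more than 0.11 between the DHT and the vehicle array. TAP2 (-0.11) was lower with DHT in the inhibitor and sh-TOP2B pairs and higher in the sh-control pair. B2M (0.22) was lower with DHT in the inhibitor series (-0.10) and higher in sh-TOP2B (0.35) and sh-control cells (0.43).

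**Figure D5:**
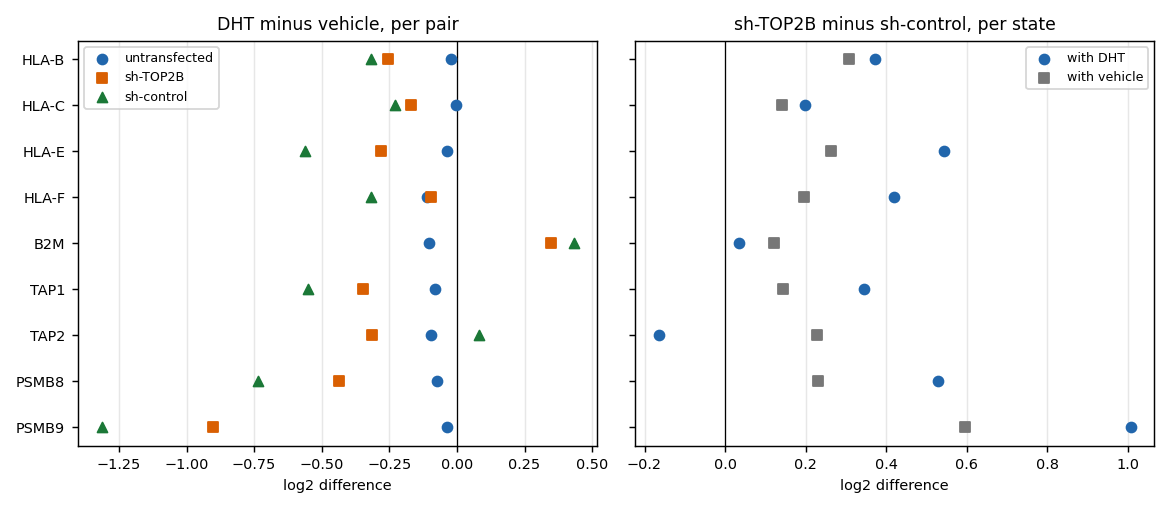
Left, DHT minus vehicle (log2 difference, horizontal axis) for each gene in the untransfected inhibitor-series pair (blue circles), the sh-TOP2B pair (orange squares) and the sh-control pair (green triangles). Right, sh-TOP2B minus sh-control with DHT (blue circles) and with vehicle (grey squares). The inhibitor-series points lie between -0.11 and 0, and PSMB9 reaches -1.31 in the sh-control pair and 1.01 in the knockdown comparison with DHT.

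The DHT result depended on the inhibitor-series pair. Fitted on the 4 shRNA arrays alone, the spread was that between 2 pairs, and 7 members passed, beside 22.1% of all genes. HLA-B (-0.29), HLA-C (-0.20), HLA-E (-0.42), TAP1 (-0.45), PSMB8 (-0.59) and PSMB9 (-1.11, limma adjusted p = 2.48e-05, range over 9 alternatives 2.48e-05 to 0.715) were lower with DHT, where 12.3% of all genes were, and B2M was higher (0.39, adjusted p = 7.79e-05, range 7.79e-05 to 0.804), where 9.81% were. HLA-F (-0.21) and TAP2 (-0.12) did not pass in that fit. In these pairs the beta-actin control probe sets moved too: their 3' minus 5' value was 2.38 with DHT against 2.69 with vehicle in sh-TOP2B cells, and 2.67 with DHT against 3.09 with vehicle in sh-control cells. Its part in the result was not tested. Over all 3 pairs no gene of the 5 pathway and class II lists passed with DHT. Of 6 luminal markers 3 rose with DHT and none fell: KLK3 (5.10), TMPRSS2 (2.16) and KLK2 (at least 41.8-fold higher, dim with vehicle). IRF1 was at -0.69 (adjusted p = 0.0855), TAPBP at -0.10 (adjusted p = 0.358), and NLRC5 and JAK1 were dim on 1 DHT and 2 vehicle arrays each (adjusted p = 0.618 for both).

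In sh-TOP2B cells the set showed small positive differences that did not pass. All 9 genes were above 0 in sh-TOP2B relative to sh-control cells, and 8 were higher both with DHT and with vehicle, as were 22.9% of all genes tested. None passed in the fit of all arrays, where 1.05% of all genes did, all of them higher, and 5 members had an unadjusted limma p under 0.05, beside 7% of all genes. PSMB9 was at 9.03 with DHT and 9.93 with vehicle in sh-TOP2B cells, against 8.02 with DHT and 9.33 with vehicle in sh-control cells (0.80 ± 0.28, adjusted p = 0.592). HLA-B was at 11.76 and 12.01 in sh-TOP2B cells, against 11.38 and 11.70 in sh-control cells (0.34 ± 0.08, adjusted p = 0.256). Both genes were higher in sh-TOP2B cells in either state, and for HLA-B both sh-TOP2B values lay above both sh-control values.

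HLA-E (0.40), PSMB8 (0.38), HLA-F (0.31), TAP1 (0.24), HLA-C (0.17), B2M (0.08) and TAP2 (0.03) did not pass either. TAP2 was below 0 (-0.03) when the median over probe sets was used. With the 4 shRNA arrays alone HLA-B (adjusted p = 0.00868, range over 7 alternatives 0.00868 to 0.637) and PSMB9 (adjusted p = 0.00176, range 0.00176 to 0.706) passed, where 2.17% of all genes were higher. All 19 member probe sets that were never dim were higher in sh-TOP2B cells, by 0.03 to 0.80. Many of them measure the same gene, so they are not independent, and the share among all probe sets was not computed. Those dim on at least 1 array were at 0.09 (HLA-F), 0.11 (B2M), and -0.57 and -0.12 (TAP2). In the fit of all arrays 2 of 10 transactivation genes rose in sh-TOP2B cells, where 1.05% of all genes did. These were IRF9 (1.36, adjusted p = 0.0173), a partner of STAT factors in the type I interferon response, and IRF1 (1.18, 8.44 against 7.27, adjusted p = 0.0201). Of 7 class II genes 1 rose, HLA-DRA (1.10, 7.35 against 6.25, adjusted p = 0.013). None of 7 loading, 6 other proteasome and 7 interferon receptor and kinase genes passed. TAPBP was at 0.16 (adjusted p = 0.698), and NLRC5 and JAK1 were dim on 3 of the 4 shRNA arrays each.

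The response to DHT was also compared between sh-TOP2B cells and the other backgrounds. These joined the sh-control pair with the untransfected pair of the inhibitor series, so the reference mixes both series. The difference between the DHT effects was -0.08 for HLA-B, -0.05 for HLA-C, 0.02 for HLA-E, 0.12 for HLA-F, 0.18 for B2M, -0.03 for TAP1, -0.31 for TAP2 (95% interval -0.97 to 0.36), -0.03 for PSMB8 and -0.23 for PSMB9 (95% interval -1.46 to 1.01). It was 0.92 for NLRC5, -0.04 for IRF1, 0.19 for JAK1 and -0.10 for TAPBP, each with adjusted p = 1 in limma. None of the 9 genes passed, no gene of all 11865 passed in limma, 1.73% of all genes had an unadjusted p under 0.05, and no member did. That fit had 1 residual degree of freedom, so only large differences could pass. NLRC5 and JAK1 were dim on 3 of the 4 shRNA arrays each, so their values here rest on dim levels. With the sh-control pair alone as reference, the sign was opposite for HLA-B, HLA-C, B2M, TAP1, PSMB8 and PSMB9. It was the same for HLA-E, HLA-F and TAP2. PSMB9 had DHT differences of -0.90 in sh-TOP2B, -1.31 in sh-control and -0.04 in untransfected cells. This narrower comparison was not tested.

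Between the series, deprived sh-control cells had lower class I levels than deprived untransfected cells. Of the 9 genes 8 fell, beside 26.6% of all genes that fell, 41.7% that rose and 68.3% that changed in either direction. The members' median was -0.95, beside 0.18 for all genes, which became -0.11 after repeated quantile normalization. HLA-B was at 11.38 with DHT and 11.70 with vehicle in sh-control cells, against 13.54 with DHT and 13.56 with vehicle in untransfected cells (-2.01 ± 0.08, limma adjusted p = 5.1e-06). HLA-C (-1.85), HLA-F (-1.80), HLA-E (-1.67), TAP2 (-0.95), PSMB9 (-0.92), TAP1 (-0.89) and B2M (-0.80) fell too. The size depended on the probe set for HLA-E, at -0.51 on the one that matches 1 sequence, and for B2M, at -2.12 on the other never-dim one. PSMB9 did not pass without a variance trend (adjusted p = 0.0517, range over 7 alternatives 0.00526 to 0.0517). PSMB8 did not pass (0.38, adjusted p = 0.106), and its sh-control values, 8.01 and 8.74, spanned more than the untransfected ones, 7.96 and 8.04. For HLA-B the 4 shRNA arrays, 11.38 to 12.01, lay around the steady-state level of 11.52, as they did for HLA-E and B2M. For HLA-F, TAP1, PSMB8 and PSMB9 all shRNA arrays lay above the steady-state level, and for HLA-C and TAP2 below it. These levels were not tested against each other. The other lists moved in both directions. Of 10 transactivation genes 6 fell, among them IRF9 (-2.87), NFKB1 (-2.70), IRF1 (-1.37) and NLRC5, dim in both sh-control arrays and at least 1.66-fold lower, and 4 rose, IRF2 (2.15), RFXAP (1.96), RFX5 (1.36) and RELA (0.51), the last not past the test after repeated quantile normalization (0.18, adjusted p = 0.163). Of 7 loading genes 3 fell, led by ERAP1 (-0.72), and 3 rose, led by CALR (0.91), while TAPBP (0.08, adjusted p = 0.312) did not pass and was at -0.05 after that normalization. Of 6 other proteasome genes 4 rose, led by PSMB5 (0.92), PSME3 (0.87) and PSMB7 (0.86), and PSME1 (-0.26) fell. Of 7 interferon receptor and kinase genes 5 fell and none rose, among them IFNGR1 (-2.34), JAK2 (-0.92) and JAK1 (at least 2.48-fold lower), and of 7 class II genes 5 fell and none rose, led by HLA-DRA (-4.93), CD74 (-2.65) and HLA-DRB1 (-1.98). Markers of cell types differed as well. The luminal genes HOXB13 (-0.91), KRT18 (-0.67) and KRT8 (-0.64) fell and KLK3 (2.91) and KLK2 rose, and of the 2 stromal and endothelial markers tested COL1A1 (1.40, adjusted p = 1.37e-04) rose and VWF (-0.97, adjusted p = 0.0415) fell. Their part in the class I result was not tested. Transfection, sorting, RNA quality and the series cannot be told apart here, and the beta-actin values above differ between the series in the same way.

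Centred within each series, the mean of the 9 genes was ordered from low to high as steady state (-1.34), etoposide with DHT (0.25), DHT (0.26), vehicle (0.33) and merbarone with DHT (0.50) in the inhibitor series. In the shRNA series the order was sh-control with DHT (-0.35), sh-TOP2B with DHT (0.02), sh-control with vehicle (0.04) and sh-TOP2B with vehicle (0.29). With 1 array per group the neighbours in these orders were not tested, and etoposide and DHT differed by less than 0.02. The correlation of each member with this mean over the 9 arrays was 0.92 to 0.99 for the 4 heavy chains, TAP1, PSMB8 and PSMB9, 0.73 for B2M and 0.19 for TAP2, and each member is part of that mean. Of 11856 other genes tested, the 5 with the profile most like it were STK38L (Pearson r = 0.99), FAM110C, CCDC127, LOC100996740 and DNAJC12, the last at 0.99. STK38L, a kinase gene, was at 9.55 in steady state, against 10.50 to 10.66 on the deprived inhibitor arrays, and DNAJC12, a co-chaperone gene, was at 10.16, against 13.06 to 13.43. The steady-state array is the point farthest from the others in this profile.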

How the data were processed

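Total RNA of 9 LNCaP cultures was hybridised to Affymetrix U133 Plus 2.0 arrays, 1 per group. The deposited values are log2 expression values, 1 per probe set and array. They were made with RMA, per the submitters' processing notes, in a version and with later steps not stated in the sources. RMA evens out the distributions of arrays processed together, so a shift common to most genes can be lost. Whether all 9 arrays were processed together was not stated in the sources. For sh-control against untransfected cells, repeated quantile normalization moved the median of all genes from 0.18 to -0.11. The number of arrays limits the precision, and no value was missing. At most 6.39% of values were equal on any pair of arrays.

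Probe sets were named from the platform annotation (41097 with 1 symbol, 1801 with several, 11777 with none), updated through RefSeq gene IDs. Each gene was read from its probe set with the highest mean, and genes below the 40th percentile of mean level were left out. Differences were tested in R 4.3.3 with limma 3.58.1, two-sided, with a variance trend and Benjamini-Hochberg adjustment over 11865 genes. The fit held 3 backgrounds as blocks, a DHT term and a term for each lone array, and left 2 residual degrees of freedom plus 4.62 from the prior. Lone arrays were set directly against 1 array, with the spread of the 3 DHT pairs. A bound ("at least") raises a dim level to the median of its array, and the p beside it comes from the deposited values. The fit recovered most known changes when tested on simulated data. There the lone arrays were made to vary like the arrays of the pairs, so that assumption was not tested.

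The members, lists and tests were chosen with earlier results of these data known. The text names all 9 members in every comparison, NLRC5, IRF1, JAK1 and TAPBP in every comparison, up to 3 genes of each other list that passed with the largest difference, and 5 genes most like the members' profile. HLA-DRA in every place outside that rule, further genes of the lists and list genes that did not pass were named after their values were seen. Of 6 stromal and endothelial markers 2 were tested and passed in sh-control against untransfected cells (COL1A1 with merbarone too, under housekeeping centring), and of 2 basal markers 1 was dim on all arrays and neither was tested. Alternatives were no variance trend, other filters, the median over probe sets, housekeeping centring, repeated quantile normalization, leaving out each pair and other reference arrays. Some genes are not reported here. Promoter windows were taken from RefSeq with Python 3.11.15 and pandas 2.3.3, and figures were drawn with matplotlib 3.10.9.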

Additional observations from a re-analysis of the deposited data

Results flagged for a closer look

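B2M had a DHT difference of -0.10 in the inhibitor-series pair, while both shRNA pairs had the opposite sign, 0.35 in sh-TOP2B cells and 0.43 in sh-control cells. The mean of the shRNA pairs minus the inhibitor pair was 0.4922, and this difference was not tested.

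TAP2 was lower in sh-TOP2B than in sh-control cells with DHT (-0.17) and higher with vehicle (0.23). The knockdown difference with DHT minus that with vehicle was -0.3935, from 1 array per group, and this difference was not tested.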

How the results depend on the processing

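With 1 array per group, most tests borrow their spread from 3 DHT pairs. RMA brings the distributions of arrays processed together close to each other, so a shift common to most genes can be lost. The arrays were not equal in distribution, with medians of 5.61 to 5.72. In steady state the fall of HLA-B, HLA-C, HLA-E, HLA-F, TAP1, PSMB8 and PSMB9 passed in every alternative run, and B2M passed in 7 of 9. The DHT test was paired by background, with the 3 pairs as blocks, and the labels give no replicate numbers for another block. Of the members' values under alternatives, 551 kept direction and side of the threshold, 9 passed anew, 7 no longer passed and 33 changed sign, none of which passed in either setting. The cause of these changes was not tested, except where fewer arrays or genes entered a fit.

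Members that passed in the merbarone comparison numbered 1, in place of 2, without a variance trend, without the level filter and without the sh-TOP2B pair (PSMB8 in each), and 1 of 3 tested without probe sets that match several sequences. The etoposide against merbarone count was 1 without a trend. In steady state it was 2 of 3 tested without those probe sets. Leaving out pairs gave 0 to 7 members for DHT, with 7 on the shRNA arrays alone, and 2 for the knockdown on the shRNA arrays alone.

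Of all genes, 53 passed with DHT, and 5 did without a trend, 20 without a filter, 35 with the median over probe sets and 1 to 2626 when a pair was left out (1 when the sh-control pair was omitted, 9 for the sh-TOP2B pair, 2626 for the inhibitor pair). With etoposide 124 passed, and 0 did without a trend, 56 without a filter, 192 with a stricter filter, 75 after repeated quantile normalization, 231 with the DHT level fitted from all pairs and 0 to 29 when a pair was left out (0 without the sh-control pair). With knockdown 124 passed, 81 without a trend and 315 on the shRNA arrays alone.

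Housekeeping centring moved the median of all genes to 0.28 with merbarone, 0.29 in steady state and -0.32 for etoposide against merbarone, and the share of calls that were higher to 75.1%, 77% and 18.8%, against 48.5%, 55.7% and 41.4%. Repeated quantile normalization gave 45.2% against 61% for sh-control against untransfected cells, and the DHT share was 44.3% without the inhibitor pair against 94.3%.

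Signs changed as follows. For etoposide, HLA-B was 0.056 and HLA-F 0.060 after repeated quantile normalization. With the DHT level fitted from all pairs, HLA-B was 0.087, HLA-F 0.028, B2M -0.0020 and PSMB9 0.26, and HLA-E was -0.018 against the vehicle array. For merbarone, housekeeping centring gave HLA-B 0.24, HLA-C 0.17, HLA-F 0.25 and TAP1 0.25, and the fitted DHT level gave HLA-B 0.046, HLA-F 0.00042, B2M -0.13 and TAP1 0.089. B2M was -0.0087 with the median over probe sets and -0.066 against the vehicle array, and HLA-E was -0.36 at its probe set that matches 1 sequence. For etoposide against merbarone, centring gave HLA-B -0.24, HLA-C -0.14, HLA-F -0.26, B2M -0.16, TAP1 -0.019 and TAP2 -0.0038, HLA-F was -0.059 with the median over probe sets, and HLA-E was 0.019 after repeated quantile normalization. For knockdown, TAP2 was -0.035 with the median over probe sets. For sh-control against untransfected cells, PSMB8 was -0.0067 after repeated quantile normalization. For the DHT response in sh-TOP2B cells, the median over probe sets gave HLA-B 0.17, HLA-E -0.25, HLA-F -0.10 and TAP2 0.013, and centring gave HLA-E -0.034.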
